A study of Mus musculus with 6 samples.

Results

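The 41 genes described here code for the machinery that folds proteins in the endoplasmic reticulum (ER), for the sensors of the unfolded protein response, and for the proteins that bring new chains into the ER or take failed ones out. They were chosen by name, from what their products are known to do, but with earlier results of these data known. All 41 were among the 15903 genes tested. The libraries came from bone marrow-derived macrophages (BMDMs), grown with the growth factor M-CSF for 7 days from the marrow of *Cx3cr1*GFP mice on the C57BL/6J background, in which GFP sits in the *Cx3cr1* locus. Both groups carry this allele. BMDMs of 3 mice were each split into an unstimulated control and a culture with 62 mM excess NaCl for 24 h, giving 3 control and 3 NaCl libraries of polyadenylated RNA. The age of the mice was not given in the sources used here. Non-adherent cells had been discarded, so the libraries describe the cells that stayed attached.

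The ER folds the proteins that a cell secretes or displays on its surface. New chains enter through the Sec61 channel, lose their signal peptide, and are folded by chaperones such as BiP and calreticulin and by protein disulfide isomerases, while chains that fail are moved back to the cytosol for degradation (ERAD). When unfolded chains build up, the sensors IRE1, PERK and ATF6 start the unfolded protein response, which slows translation and induces chaperone and ERAD genes. Macrophages rely on this system for secreted enzymes, cytokines and receptors.

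Many chaperone genes carry an ER stress response element (ERSE) close to their start, the site where NF-Y and ATF6 bind together. It was searched for as CCAAT, then 9 bases of any kind, then CCACG, on both strands of the 300 bases from 250 before to 50 after the start in RefSeq (GRCm38.p6). A promoter entry was matched for 33 of the 41 genes. Of these, 9 (27.3%) held an ERSE, namely *Calr*, *Canx*, *Creld2*, *Derl3*, *Dnajc3*, *Hsp90b1*, *Hspa5*, *Pdia6* and *Syvn1*, against 37 of 27025 genes with a promoter (0.137%). The list was chosen by known function and includes such chaperone genes, so a share above that of all promoters was built in. The 250 bases before the start are shown for the ERSE-bearing genes that fell with excess NaCl in the analysis by mouse given further on, and for *Herpud1*, with the motif letters in capitals and each written 5′ to 3′ along the gene. The intervals are chr2:34771840-34772089 (plus strand) for *Hspa5*, chr8:84846932-84847181 (minus) for *Calr*, chr10:86705445-86705694 (minus) for *Hsp90b1*, chr12:17266339-17266588 (plus) for *Pdia6*, chr14:118937682-118937931 (plus) for *Dnajc3* and chr8:94386179-94386428 (plus) for *Herpud1*.
Hspa5: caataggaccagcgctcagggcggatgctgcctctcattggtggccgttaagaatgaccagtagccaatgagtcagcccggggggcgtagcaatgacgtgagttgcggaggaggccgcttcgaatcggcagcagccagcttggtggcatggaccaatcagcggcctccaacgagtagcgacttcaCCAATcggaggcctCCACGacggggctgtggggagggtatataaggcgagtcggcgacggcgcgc
Calr: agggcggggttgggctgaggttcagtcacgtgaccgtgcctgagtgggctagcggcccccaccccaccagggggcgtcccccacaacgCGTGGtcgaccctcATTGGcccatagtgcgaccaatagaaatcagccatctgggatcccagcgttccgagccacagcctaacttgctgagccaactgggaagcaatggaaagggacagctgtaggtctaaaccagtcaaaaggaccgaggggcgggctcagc
Hsp90b1: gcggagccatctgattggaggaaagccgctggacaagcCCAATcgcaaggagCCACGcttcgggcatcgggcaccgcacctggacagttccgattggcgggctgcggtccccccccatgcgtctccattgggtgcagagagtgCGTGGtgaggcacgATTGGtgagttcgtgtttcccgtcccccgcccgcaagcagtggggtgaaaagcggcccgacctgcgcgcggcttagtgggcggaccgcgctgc
Pdia6: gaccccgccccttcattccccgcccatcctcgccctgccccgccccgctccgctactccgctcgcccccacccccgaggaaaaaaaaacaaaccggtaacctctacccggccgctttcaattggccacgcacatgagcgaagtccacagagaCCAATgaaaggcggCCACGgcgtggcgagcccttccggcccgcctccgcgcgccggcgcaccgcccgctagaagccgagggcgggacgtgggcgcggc
Dnajc3: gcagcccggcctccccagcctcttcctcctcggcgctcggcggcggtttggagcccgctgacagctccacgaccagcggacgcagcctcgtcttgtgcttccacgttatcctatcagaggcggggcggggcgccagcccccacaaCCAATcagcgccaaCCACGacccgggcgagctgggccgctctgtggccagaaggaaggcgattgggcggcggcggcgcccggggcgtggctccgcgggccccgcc
Herpud1: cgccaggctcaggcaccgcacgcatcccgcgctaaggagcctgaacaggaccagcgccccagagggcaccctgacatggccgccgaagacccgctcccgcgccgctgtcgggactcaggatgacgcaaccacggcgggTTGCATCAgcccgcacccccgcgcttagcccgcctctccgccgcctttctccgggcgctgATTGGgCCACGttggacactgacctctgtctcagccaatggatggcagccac

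In *Hspa5* the ERSE began 65 bases before the start, in *Pdia6* 98, in *Dnajc3* 105 and in *Calr* 162. *Hsp90b1* held a pair of them, 212 and 107 bases before the start. *Herpud1* held no ERSE but the related ERSE-II (ATTGG, 1 base of any kind, CCACG) 52 bases before its start, and the C/EBP-ATF response element (CARE, searched as TTGCATCA), which ATF4 dimers can bind, 112 bases before it. ERSE-II was found for 2 of the 33 genes, *Herpud1* and *Dnajb11*, and in 0.0444% of all promoters. *Herpud1* was the single gene of the 33 with a CARE, which 1.03% of all promoters held. The unfolded protein response element (UPRE, searched as TGACGTGG), the site of ATF6 and XBP1, was in none of the 33 windows and in 0.714% of all promoters. These matches describe letters in a window and not binding.

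Library totals ran from 8520433 to 20123570 counts in the controls and from 4088065 to 11610020 with NaCl, the lowest being NaCl replicate 3. All 8 macrophage markers were detected, with a summed level of 15013 to 16887 CPM (counts per 1000000 counts, on TMM-scaled library sizes) in controls and 23957 to 31399 CPM with NaCl, a sum carried mostly by *Lyz2*. Of the 8, 4 had a positive and 4 a negative log2 fold change. *Lyz2* and *Cd14* were called higher by edgeR both without and with the mouse as a block, and *Csf1r* only with it. *Mrc1*, at 366 ± 258 CPM in controls and 185 ± 136 CPM with NaCl, was lower in 3 of 3 mice and called lower with the block. Markers of neutrophils and their precursors summed to 313 to 584 CPM against 308 to 408 CPM, and 3 of the 10 (*Mpo*, *Ngp*, *Csf3r*) were called lower with the mouse as a block. The 6 monocyte markers summed to 181 to 321 CPM in controls and 153 to 366 CPM with NaCl, and were highest in mouse 1 in both groups. Of these, *F13a1* was called higher with the block and 0 were called lower. With the block, 4.30% of all genes were called lower and 4.60% higher. B-cell and plasma-cell markers, of which 4 of 11 had enough counts to be tested, summed to 87.0 to 150 CPM against 98.5 to 190 CPM, with *Pax5* and *Mzb1* at 0 in every library. The part that these shifts play in the ER genes was not tested. In bulk RNA, fewer cells of a type and less RNA per cell cannot be told apart.

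As a group, the ER genes took a smaller share of the RNA with excess NaCl. Their summed level was 7478, 9214 and 8797 CPM in control replicates 1 to 3 and 6712, 6317 and 7014 CPM in the NaCl libraries of the same mice, so the groups did not overlap. As a share of all counts this was 0.772%, 0.899% and 0.867% against 0.696%, 0.60% and 0.716%. The sums are carried mostly by the chaperones and isomerases, and are given without a test.

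The fold changes of single genes were modest and leaned to one side. The log2 fold change of NaCl against control was negative for 39 of the 41 (95.1%), as it was for 50.8% of all genes tested. The median was -0.26, against a median of -0.01 over all genes tested. The values ran from -0.66 for *Pdia6* to 0.07 for *Sec11a*, and *Ssr4* at 0.05 was the other positive one. In 29 of the 41 (70.7%) the NaCl library was lower than the control of the same mouse in 3 of 3 mice, as were 23.4% of all genes tested. *Sec11a* was higher in 3 of 3 mice, which 20.1% of all genes were. In 14 of the 41 (34.1%) every NaCl library lay below every control library (10.1% of all genes), and in 0 every NaCl library lay above (8.92% of all genes).

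**Figure D1:**
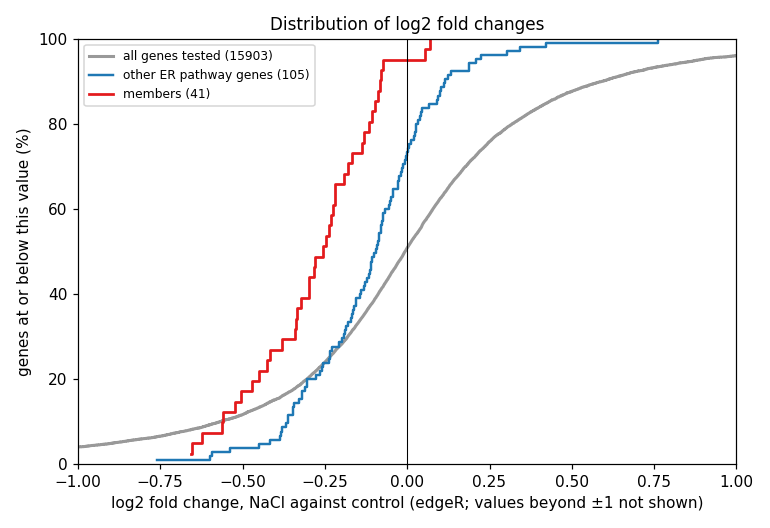
Cumulative distribution of the log2 fold change of NaCl against control (edgeR, x axis) as a percentage of genes (y axis) for the 41 ER genes, 105 other genes of the ER pathway and all 15903 genes tested. The curve of the 41 genes lies to the left, with a median of -0.26 against -0.10 and -0.01, and reaches 0 with 39 of its genes.

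The test that treats the 6 libraries as independent called 0 of the 41 genes in either direction (edgeR's quasi-likelihood test, adjusted p under 0.05 over all genes), where 0.176% of all genes were called lower and 0.478% higher. At an unadjusted p under 0.05 it found 12 lower (29.3%) and 0 higher, where 6.01% of all genes were lower and 6.63% higher. DESeq2 called 2 lower, *Calr* and *Pdia6*, against 0.975% of all genes, and limma-voom called 0. Because control and NaCl libraries with the same number came from the same mouse, the test was also run with the mouse as a block. It then called 10 of the 41 lower (24.4%) and 0 higher, where 4.30% of all genes were called lower and 4.60% higher. Among genes averaging 50 or more counts in a library, 10 of 38 ER genes (26.3%) were called lower against 6.06% of such genes, and 28 of 38 (73.7%) were lower in 3 of 3 mice against 25.9%. Below, a gene is said to have fallen only where the analysis with the mouse as a block called it, and both adjusted p-values are given.

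The 5 chaperones, which bind unfolded chains and hold them in the ER, included 3 of the 10 genes. All 5 were lower in 3 of 3 mice, and in 4 of them the groups did not overlap. Their median log2 fold change was -0.47.

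*Hspa5* codes for BiP, the ER's main Hsp70 chaperone, which also holds the stress sensors inactive. It was at 619, 833 and 793 CPM in the controls and at 518, 528 and 575 CPM with NaCl. Its mean fell from 748 ± 114 to 540 ± 30.7 CPM (SD, n = 3), with a log2 fold change of -0.47 ± 0.14 (SE). The edgeR adjusted p was 0.211 without and 0.0133 with the mouse as a block. Control replicate 1 was the lowest control and lay closest to the NaCl libraries, which lay close together.

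*Calr* codes for calreticulin, which binds calcium and the sugars of unfinished glycoproteins, and which on the surface of dying cells also serves as a signal for their uptake. The study had picked it among its phagocytosis genes on these same samples. Its level was 984, 1324 and 1245 CPM in the controls and 781, 791 and 838 CPM with NaCl, where the mean fell from 1184 ± 178 to 804 ± 30.6 CPM. This is a log2 fold change of -0.56 ± 0.14, with an edgeR adjusted p of 0.139 without and 0.00361 with the block. Per kilobase of exon it was the most abundant of the 41 in the controls, at 411 ± 61.8 CPM per kb, ahead of *Pdia3* (243 ± 24.8), *P4hb* (226 ± 29.4) and *Hspa5* (177 ± 26.9). The range of *Calr* lay above those of the other three, while the means of *Pdia3* and *P4hb* were within 1 SD of each other.

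*Hsp90b1* codes for GRP94, the Hsp90 of the ER, needed for integrins and Toll-like receptors. It was at 543, 669 and 598 CPM in the controls and 463, 325 and 472 CPM with NaCl, and NaCl replicate 2 was the lowest. The mean fell from 603 ± 63.5 to 420 ± 82.6 CPM (log2 fold change -0.52 ± 0.17, edgeR adjusted p 0.238 without and 0.0110 with the block). Of its exonic length 15.7% overlaps *1810014B01Rik* on the other strand, and the counts carry no strand.

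*Canx*, the membrane-bound partner of calreticulin, was at 537, 609 and 567 CPM against 470, 395 and 507 CPM. Its groups did not overlap, but its edgeR adjusted p was 0.371 without and 0.0976 with the block. *Hyou1*, an Hsp70-like chaperone that exchanges the nucleotide on BiP, was the least shifted of the 5, at a log2 fold change of -0.18 (95% interval -0.69 to 0.33), and in mouse 1 its levels were 127 and 126 CPM.

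The 6 partners of BiP and resident ER factors had 2 genes past the threshold, and the median of their log2 fold changes was -0.35. *Manf* codes for a small secreted factor that binds BiP. It was at 48.0, 72.3 and 79.7 CPM in the controls and 38.2, 36.4 and 57.0 CPM with NaCl. The groups overlapped, since the NaCl library of mouse 3 was above the control of mouse 1, yet each mouse's NaCl library was the lower of its pair. The log2 fold change was -0.62 ± 0.23, with an edgeR adjusted p of 0.296 without and 0.00349 with the block. Its exons overlap *4930524O07Rik* on the other strand over 9.25% of their length.

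*Dnajc3* codes for P58IPK, a J-domain cochaperone of BiP first known as an inhibitor of eIF2α kinases. It was at 126, 147 and 157 CPM against 108, 95.2 and 118 CPM, without overlap. Its mean fell from 143 ± 15.7 to 107 ± 11.3 CPM (log2 fold change -0.43 ± 0.14, edgeR adjusted p 0.247 without and 0.0238 with the block). *Dnajb9*, the J-domain protein ERdj4, which returns BiP to IRE1, was at 39.9, 39.3 and 36.8 CPM against 32.5, 21.3 and 33.8 CPM. It had an unadjusted p of 0.0480 and missed the threshold with the block (edgeR adjusted p 0.0545). The other three, *Dnajb11*, *Sdf2l1* and *Creld2*, had log2 fold changes of -0.24, -0.28 and -0.12 and overlapping groups, and of these *Sdf2l1* was lower in 3 of 3 mice.

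**Figure D2:**
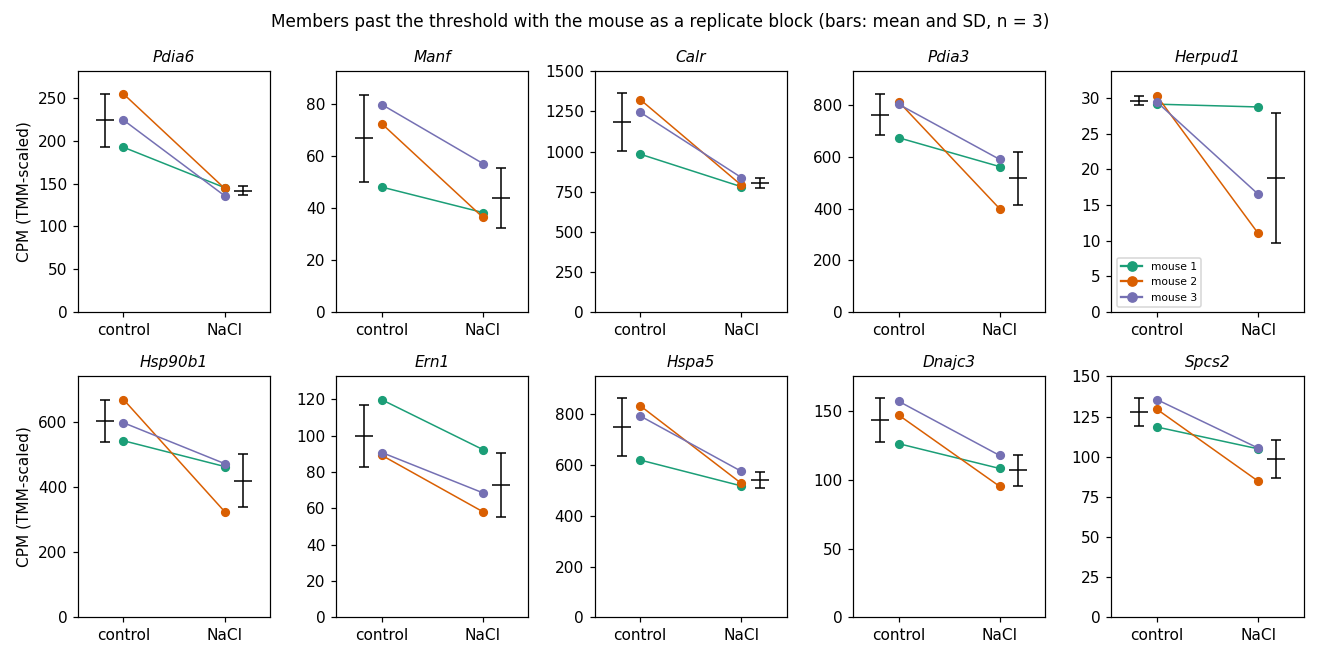
CPM (y axis, TMM-scaled) in the control and NaCl library of each mouse (lines, colours by mouse) for the 10 ER genes past the threshold with the mouse as a block, with mean and SD (black, n = 3). Every line slopes down, by the least in mouse 1 for *Herpud1* (29.1 to 28.7 CPM), and *Ern1* shows mouse 1 above the others in both conditions.

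All 6 disulfide and prolyl isomerases, which make and rearrange disulfide bonds or turn proline bonds, were lower in 3 of 3 mice. Their median log2 fold change was -0.29, and 2 passed the threshold. *Pdia6*, whose product P5 works with BiP and also reduces IRE1, had the lowest edgeR p of the 41. It was at 192, 255 and 224 CPM in the controls and 145, 144 and 136 CPM with NaCl. The mean fell 1.58-fold, from 224 ± 31.1 to 142 ± 5.22 CPM, and the lowest control was above the highest NaCl library by more than the whole range of the NaCl group. On the log2 scale it was -0.66 ± 0.14 (95% interval -0.96 to -0.35), with an edgeR adjusted p of 0.0728 without and 0.000664 with the block, and a DESeq2 adjusted p of 0.00354.

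*Pdia3* codes for ERp57, the isomerase that calreticulin and calnexin bring to glycoproteins and that helps load peptides onto MHC class I. It was at 674, 814 and 804 CPM against 563, 400 and 591 CPM. Its mean fell from 764 ± 77.9 to 518 ± 103 CPM, with NaCl replicate 2 again the lowest (log2 fold change -0.56 ± 0.17, edgeR adjusted p 0.20 without and 0.00523 with the block). *P4hb*, which codes for the classical isomerase PDI, was the least shifted of the 6 at -0.19 on the log2 scale (95% interval -0.50 to 0.12). It was at 556, 721 and 665 CPM against 532, 615 and 553 CPM, so the groups overlapped. *Pdia4* and *Ppib* had log2 fold changes of -0.30 and -0.23. *Ppib* overlaps *Snx22* on the other strand and shares 26.0% of its 75-base windows with other genes, so its value is uncertain. *Pdia5* was counted 14 to 76 times per library and its log2 fold change of -0.28 has a 95% interval that reaches 0.44 on the upper side.

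Of the 5 genes for sensors and their direct regulators, *Ern1* alone passed the threshold. *Ern1* codes for IRE1α, the kinase and nuclease that splices *Xbp1* mRNA. It was at 120, 89.1 and 90.7 CPM in the controls and 92.3, 58.1 and 68.5 CPM with NaCl. The groups overlapped because mouse 1 was higher than the other mice in both conditions, while the log2 ratios within mice 1 to 3 were close, at -0.37, -0.62 and -0.40. Its mean fell from 99.9 ± 17.2 to 73.0 ± 17.5 CPM (log2 fold change -0.45 ± 0.19, edgeR adjusted p 0.375 without and 0.0116 with the block).

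*Atf6* codes for the sensor that is cut in the Golgi to release a transcription factor. It was at 198, 215 and 212 CPM against 173, 202 and 215 CPM, with a log2 fold change of -0.08 (95% interval -0.37 to 0.20, edgeR adjusted p 0.842). *Eif2ak3*, which codes for PERK, the kinase that phosphorylates eIF2α, was at 36.0, 42.1 and 37.8 CPM against 37.5, 29.4 and 24.0 CPM (-0.34, edgeR adjusted p 0.465 without and 0.120 with the block). It was lower in mice 2 and 3 and close to level in mouse 1.

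*Xbp1*, the transcription factor downstream of IRE1α, went in opposite directions between mice. It was at 113, 135 and 131 CPM against 140, 85.8 and 132 CPM, so the NaCl library was the higher one in mouse 1, the lower one in mouse 2 and at the same level in mouse 3. The log2 fold change was -0.09 (95% interval -0.50 to 0.32, edgeR adjusted p 0.890). Counts per gene do not tell spliced from unspliced *Xbp1*. *Ppp1r15a*, which codes for GADD34 and lifts the block on translation, was at 23.1, 46.2 and 28.2 CPM against 22.1, 32.1 and 22.5 CPM (-0.34, edgeR adjusted p 0.651 without and 0.171 with the block). Without the block, the 95% intervals of *Eif2ak3* (-0.73 to 0.05), *Xbp1* and *Ppp1r15a* (-0.92 to 0.24) include the log2 fold change of *Ern1*, and that of *Atf6* does not. With the block, the log2 fold change of *Ern1* was -0.47. The blocked intervals of *Eif2ak3* and *Ppp1r15a* include this value, and those of *Xbp1* (-0.40 to 0.17) and *Atf6* (-0.32 to 0.15) do not. Both of the latter overlap the blocked interval of *Ern1* itself (-0.71 to -0.22). The difference of these genes from *Ern1* was not tested.

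Among the 7 ERAD genes, *Herpud1* passed the threshold. It codes for a membrane protein that gathers the ubiquitin ligase complex of ERAD, and is itself a classical target of the unfolded protein response. Its controls were alike, at 29.1, 30.3 and 29.4 CPM, while its NaCl libraries spread to 28.7, 11.1 and 16.5 CPM. The fall was thus near 0 in mouse 1 (log2 ratio -0.02) and large in mouse 2 (-1.44) and mouse 3 (-0.82). The mean fell from 29.6 ± 0.595 to 18.8 ± 9.04 CPM (log2 fold change -0.65 ± 0.29, edgeR adjusted p 0.391 without and 0.00937 with the block).

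The remaining ERAD genes had log2 fold changes between -0.13 and -0.51, of which the latter, *Derl3*, was counted only 2 to 20 times per library. *Sel1l*, *Derl1* and *Derl2*, which code for parts of the channel and its ligase scaffold, had no overlap between groups, with log2 fold changes of -0.22, -0.23 and -0.34, and none passed either test. *Syvn1*, which codes for the ligase HRD1, and *Edem1*, which picks out misfolded glycoproteins, were at -0.14 and -0.13 on the log2 scale.

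The 3 genes of the Sec61 channel had a median log2 fold change of -0.11, and none passed a test. *Sec61a1*, the pore subunit and the one with the lowest p, was at 138, 176 and 170 CPM against 135, 148 and 148 CPM (-0.17, 95% interval -0.47 to 0.13, edgeR adjusted p 0.660 without and 0.465 with the block). *Sec61g*, with 3 to 41 counts per library, shares 13.7% of its 75-base windows with *Gm10177*, and *Sec61b* shares 10.1% with *Gm10320*. In the 4 genes of the translocon-associated protein (TRAP) complex the median was -0.23. *Ssr3*, the one with a group that did not overlap, was at 313, 332 and 310 CPM against 285, 222 and 297 CPM (-0.25, edgeR adjusted p 0.516 without and 0.215 with the block), and *Ssr4* was higher in mice 1 and 2 and lower in mouse 3.

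The signal peptidase, which cuts the leader off entering chains, gave 1 gene past the threshold of 5. *Spcs2*, an accessory subunit, was at 118, 130 and 136 CPM against 105, 84.8 and 105 CPM, without overlap. Its mean fell from 128 ± 8.65 to 98.4 ± 11.7 CPM (log2 fold change -0.38 ± 0.14, edgeR adjusted p 0.285 without and 0.0453 with the block), and with the mouse in DESeq2's design its adjusted p was 0.101. The catalytic subunits *Sec11a* and *Sec11c* were at 0.07 (95% interval -0.22 to 0.35) and -0.07 (-0.34 to 0.19), and *Spcs1* and *Spcs3* at -0.10 and -0.30.

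**Figure D3:**
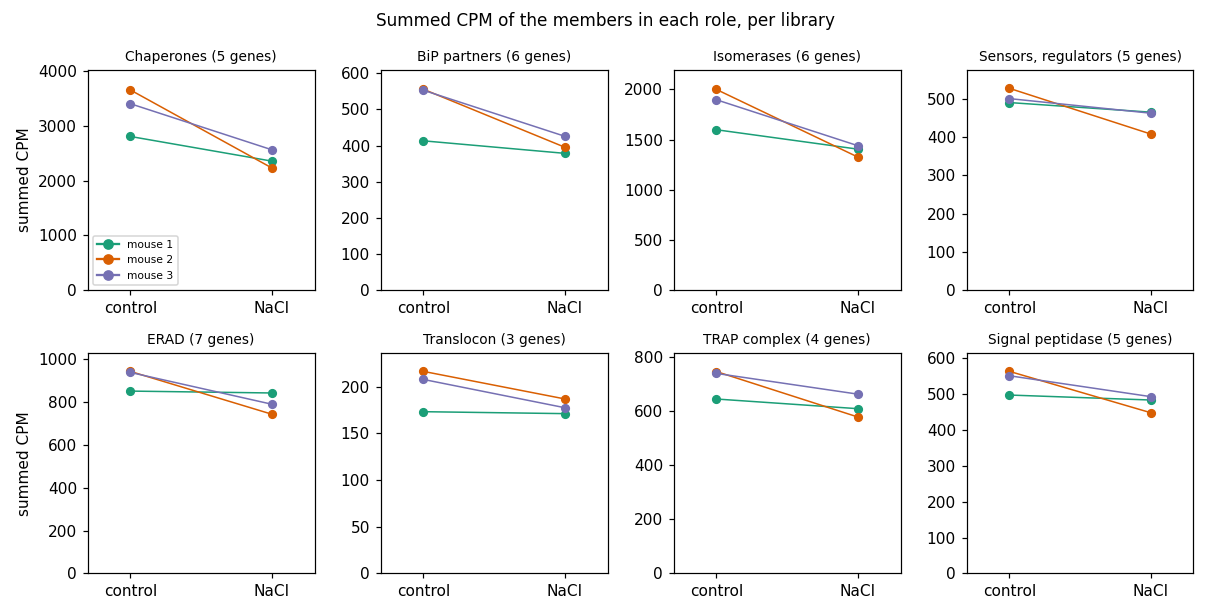
Summed CPM (y axis, from 0) of the ER genes in each role in the control and NaCl library of each mouse (lines, colours by mouse). Chaperones show the largest sums, 2810 to 3660 CPM in controls and 2232 to 2565 CPM with NaCl, and the translocon the smallest, 173 to 216 CPM against 171 to 187 CPM, where the groups overlap.

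The 3 mice did not show the pattern to the same degree. The median log2 ratio of NaCl over control across the 41 genes was -0.06 in mouse 1, -0.43 in mouse 2 and -0.30 in mouse 3, where the medians over all genes were -0.01, 0.00 and -0.04. In mouse 1, 30 of the 41 ratios were negative, in mouse 2 it was 39 and in mouse 3 it was 38. The share of all genes tested with a negative ratio was 52.3%, 48.9% and 54.5% in mice 1, 2 and 3. The lowest of a gene's 3 ratios, whatever its sign, was in mouse 2 for 24 genes, in mouse 3 for 15 and in mouse 1 for 2, *Pdia5* and *Atf6*. Of all genes tested, 34.9%, 38.6% and 26.5% had theirs in mice 2, 3 and 1.

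For most of the ER genes that fell, the control library of mouse 1 stood below the other controls. It had the lowest control level for 9 of these 10 genes, *Hspa5* and *Calr* among them. The share of all genes with their lowest control in this library was not counted. The summed chaperones of that library, at 2810 CPM, were below the 3660 and 3408 CPM of the other controls. With both libraries of mouse 1 left out, the blocked test called 6 of the 41 genes lower, and 417 of all 14949 genes tested. With mouse 2 left out it called 8 of the 41 (661 of all 14827 genes), and with mouse 3 left out 8 (585 of all 14863). *Calr*, *Manf*, *Pdia3* and *Pdia6* were called in each of these 3 fits, *Hsp90b1*, *Ern1* and *Herpud1* in 2 of them, *Hspa5* and *Dnajc3* in 1, and *Spcs2* in 0.

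**Figure D4:**
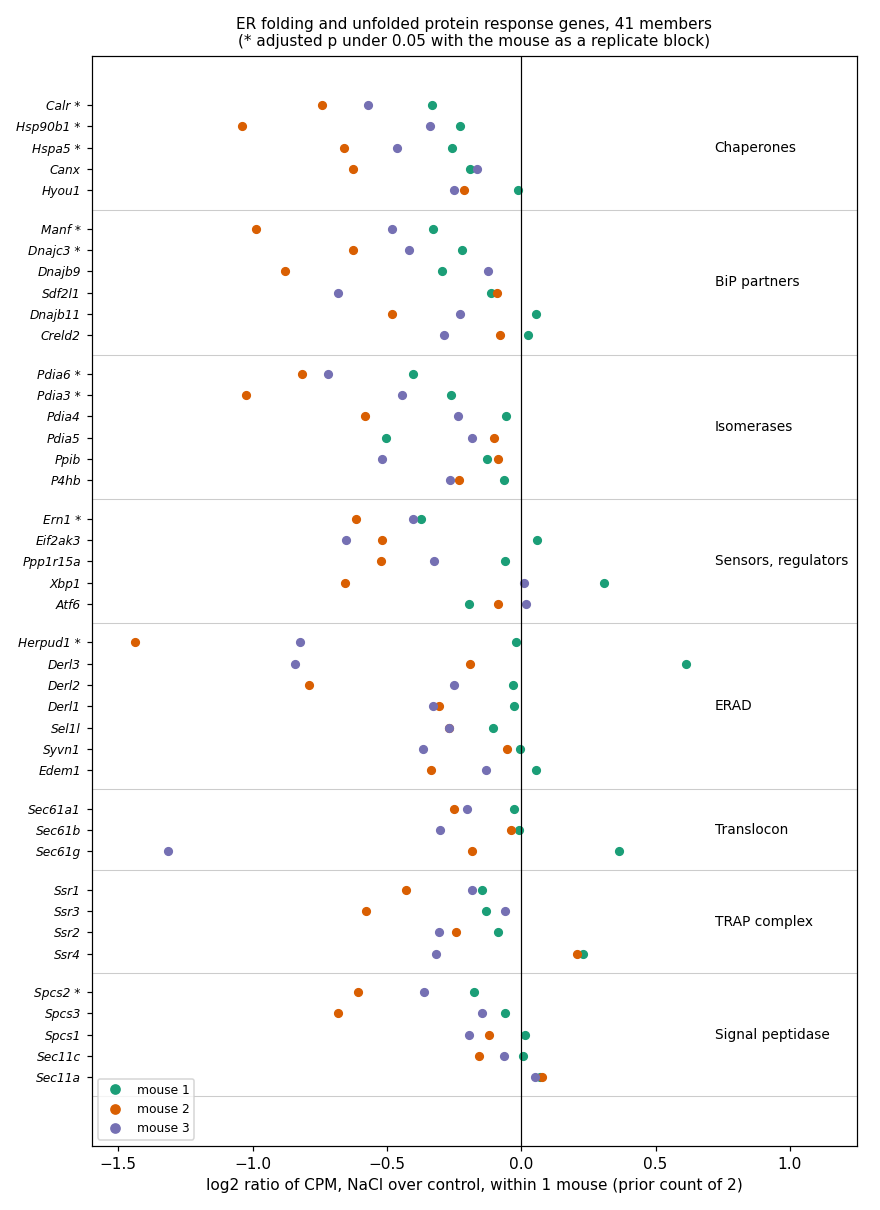
Log2 ratio of CPM in the NaCl over the control library within each mouse (x axis, prior count of 2) for each of the 41 ER genes (rows, grouped by role, colours by mouse, asterisk for an adjusted p under 0.05 with the mouse as a block). Most points lie left of 0, those of mouse 1 closest to it (median -0.06) and those of mouse 2 farthest (median -0.43).

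Of the 9 genes that fell and had a promoter entry, 5 held an ERSE (55.6%), *Calr*, *Dnajc3*, *Hsp90b1*, *Hspa5* and *Pdia6*, against 4 of the 24 other genes with one (16.7%). The 4 others, *Canx*, *Creld2*, *Derl3* and *Syvn1*, had log2 fold changes of -0.32, -0.12, -0.51 and -0.14. *Pdia3*, *Ern1* and *Spcs2* fell with none of the 4 motifs in the window. No promoter entry was matched for *Manf*. Of the 5 bearers that fell, *Calr*, *Hsp90b1* and *Hspa5* are chaperone genes, the kind already known to carry an ERSE. These shares are counts within the list and carry no test.

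The wider ER pathway was followed with 109 further genes in 9 lists, of which 105 were tested and 0 were called by edgeR without the block, with 9 lower (8.57%) and 0 higher at an unadjusted p under 0.05, where 6.01% of all genes were lower and 6.63% higher. With the block, 6 of the 105 were called lower (5.71%) and 0 higher, where 4.30% of all genes were called lower and 4.60% higher. The share called lower was thus near that of all genes. DESeq2 called 1 lower, as it did 0.975% of all genes. The median log2 fold change was -0.10, with 77 negative (73.3%) and 28 positive, where 50.8% of all genes were negative. In 3 of 3 mice, 47 of 105 (44.8%) were lower, as were 23.4% of all genes.

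*Atf4* codes for the transcription factor that PERK and the other eIF2α kinases switch on through translation, and had the largest fall of the 6. It was at 200, 289 and 304 CPM in the controls and at 143, 147 and 179 CPM with NaCl, without overlap. Its mean fell from 264 ± 55.9 to 156 ± 19.6 CPM (log2 fold change -0.76, edgeR adjusted p 0.105 without and 0.000170 with the block, DESeq2 adjusted p 0.00981). *Ero1a*, the oxidase that recharges PDI, was at 51.4, 71.7 and 69.7 CPM against 42.0, 39.3 and 47.2 CPM (-0.59, edgeR adjusted p 0.161 without and 0.00427 with the block). *Erp44*, a thioredoxin-family protein that retains ERO1 and unfinished secretory proteins, was at 78.6, 90.8 and 88.1 CPM against 65.6, 50.9 and 73.1 CPM (-0.45, edgeR adjusted p 0.275 without and 0.0231 with the block).

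*Creld1*, a homologue of *Creld2*, was at 34.5, 41.7 and 36.4 CPM against 27.8, 28.3 and 20.6 CPM (-0.54, edgeR adjusted p 0.209 without and 0.00994 with the block). *Nfe2l1*, an ER-anchored transcription factor for proteasome genes, was at 259, 288 and 267 CPM against 215, 196 and 215 CPM (-0.38, edgeR adjusted p 0.223 without and 0.0398 with the block). *Lman1*, the cargo receptor ERGIC-53, was at 113, 145 and 146 CPM against 91.1, 101 and 118 CPM, with overlapping groups (-0.39, edgeR adjusted p 0.344 without and 0.0396 with the block). The calls of *Erp44*, *Nfe2l1* and *Lman1* were lost with the mouse in DESeq2's design (adjusted p 0.0760, 0.0562 and 0.0777). With 1 mouse left out of edgeR's blocked fit, *Erp44* and *Nfe2l1* were each called in 1 of 3 fits and *Lman1* in 0, *Creld1* in 2, and *Atf4* and *Ero1a* in 3. In 5 of the 9 lists no gene passed either test, among them the 11 subunits of the oligosaccharyltransferase, of which 10 had a negative log2 fold change with a median of -0.11, and the 13 targeting and translocation factors, with a median of -0.03.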

How the data were processed

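RNA of 6 BMDM cultures (control and excess NaCl from each of 3 mice) was sequenced as unstranded single-end reads of 75 bases. The authors deposited a table of read counts per gene and a table of the same counts divided by a size factor per library (signal), which was checked against the counts and not tested. Per the labels and methods, reads were trimmed with fastp 0.20.0 and counted with STAR 2.7.10b on mm10 with GENCODE annotation, and the authors compared groups with DESeq2 1.40.2. Counts were tested here with edgeR 4.0.16 (TMM, quasi-likelihood, genes with 10 or more counts in all, Benjamini-Hochberg over all genes tested, threshold 0.05). Standard errors, intervals and p-values without further naming are from edgeR without a block, and SDs are over 3 libraries. The standard error was derived as the size of the log2 fold change over the square root of the test's F statistic. The intervals are t intervals built from it. CPM are TMM-scaled. DESeq2 1.42.0, limma-voom (limma 3.58.1), other scalings, other count filters, left-out libraries and left-out mice were alternatives. The labels give mouse 1 to 3 in both groups, so the numbers mark the same animal. Deviations from the group means correlated at 0.43, 0.15 and 0.22 within mice and at -0.35 to 0.12 between mice. The NaCl library of mouse 2 was nearly as close to the control of mouse 3 (0.12) as to its own (0.15). Deviations within a group cancel out, so positive values within mice bring lower ones between mice.

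Exon lengths, overlaps and shared 75-base windows came from GENCODE M21, which need not be the annotation of the counts, and promoters from RefSeq (GRCm38.p6). The genes and lists were chosen with earlier results of these data known. Values per library are given for genes past the threshold with or without the block, for the sensor genes, and for the gene with the lowest p in a role without one. *Canx*, *Dnajb9* and *P4hb*, and the cell type markers named, were chosen after their values were seen. Of the further pathway genes, those past the threshold and averaging 50 or more counts are named. The fits were run on simulated counts with planted changes larger than those of the ER genes, so recovery of changes as small as theirs was not tested.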

Additional observations from a re-analysis of the deposited data

How the results depend on the processing

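The median log2 fold change of the 41 ER genes stayed negative in every alternative run, between -0.37 and -0.17, and no alternative called any of them higher. The number called lower was 0 without a block and did not move under median-ratio or total-count scaling, filterByExpr or limma-voom. It was 2 with DESeq2, 10 with the replicate block, 9 with the replicate block in DESeq2 and 6 with a minimum total count of 1. With the block and mouse 1, 2 or 3 left out it was 6, 8 and 8, and with single libraries left out it ran from 0 to 1, *Herpud1* without NaCl replicate 1. For the other ER pathway genes, where it was 0, these settings gave 1, 6, 3 and 2 lower, with mice left out 4, 6 and 6, and with libraries left out 0 to 1 (*Atf4*, without control replicate 1). The block without mouse 3 also called 1 higher. Over all genes, 76 higher and 28 lower became 245 and 155 with DESeq2, 732 and 684 with the block, 452 and 354 with the block in DESeq2, and 362 and 300 with a minimum total count of 1. With mice left out of the blocked fit they were 469, 758 and 715 higher and 417, 661 and 585 lower, and with libraries left out 8 to 123 higher and 0 to 46 lower. With libraries left out, the log2 fold change of *Atf6* ran from -0.15 to 0.0051 (without NaCl replicate 1), that of *Xbp1* from -0.22 to 0.11 (without NaCl replicate 2) and that of *Ppp1r15a* from -0.54 to 0.0094 (without control replicate 2). *Xbp1* was at 0.17 with the block and mouse 2 left out. The 22 ER and pathway genes with values per library chosen by rule were picked partly by the calls of the blocked fit. That the block changed these 10 and 6 calls among them, and no others, follows from that rule. Among the markers named, the block also changed the calls of *Csf1r*, *Mrc1*, *Mpo*, *Ngp*, *Csf3r* and *F13a1*. Without a block, the spread between mice is counted as error, and the cause of the other shifts was not tested. A library of 4088065 counts limits genes such as *Derl3* and *Sec61g*, which had 2 and 3 counts in NaCl replicate 3.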
